A study of Mus musculus with 10 samples.

Results

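The 8 genes described here mark endothelial tip cells, the leading cells of a growing blood vessel: Esm1, Apln, Angpt2, Dll4, Cxcr4, Pdgfb, Unc5b and Nid2. They were followed in the lungs of newborn mice kept in high oxygen, which the study uses to model bronchopulmonary dysplasia (BPD), a lasting lung disease of infants born early. The members were taken by symbol, out of 18193 genes that had a probe set naming 1 gene, and 12 probe sets of the array carried one of their symbols. Each gene is given by its brightest probe set on average, called the leading one, and its other probe sets serve as a check. Esm1 was chosen by its measured values, the difference of hyperoxia from room air at postnatal day 14 (P14) and at P29, so its values are a description and carry no test. For the other 7 genes the rule names no value.

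Whole lungs of ICR mice were dissected, washed and used for total RNA, with 10 samples on Affymetrix arrays. Pups were pooled and randomized within 12 h of birth, and nursing dams were rotated between the exposures. There were 3 arrays of P14 hyperoxia lungs (80% oxygen for 14 days, labelled BPD) and 2 of P14 room air lungs (labelled WT and normal). There were 3 arrays of P29 hyperoxia lungs (80% oxygen for 29 days, labelled BPD) and 2 of P29 room air lungs (labelled WT and normal). No group carries an engineered allele or a drug, and it is not stated whether the arrays are separate animals. Each p-value thus reflects how far arrays of a group spread, which may be technical.

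A vessel sprout is led by a tip cell that follows a gradient of the growth factor VEGF-A, sensed through its receptor Kdr. VEGF signalling raises the Notch ligand Dll4 on the tip cell, and Dll4 activates Notch on its neighbours, which holds them back as stalk cells. Tip cells also release Pdgfb, which attracts pericytes through Pdgfrb, and Angpt2 and Apln, which act on the receptors Tek and Aplnr of endothelial cells. In the growing lung, capillaries extend along the septa that divide the air spaces. There Apln is also known as a marker of aerocytes, the large capillary cells of gas exchange, and Aplnr as a marker of general capillary cells.

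The tissue was lung on every array: the surfactant gene Sftpc lay between 14.66 and 14.89 and Ager, a marker of alveolar type 1 cells, between 14.03 and 14.45 on the log2 scale of the deposited values. Endothelial RNA was measured too, with all 14 pan-endothelial markers above the filter on low values. Tip cells themselves were not isolated, and in whole lung fewer cells of a type cannot be told apart from less RNA per cell. The actin control has probe sets at its 3′ and 5′ ends, and their difference is a measure of RNA integrity that is larger for broken RNA. It was 1.33 to 2.21 on P14 hyperoxia arrays against 0.32 to 0.54 on P14 room air arrays, and 1.72 to 1.86 on P29 hyperoxia arrays against 0.52 to 0.74 on P29 room air arrays. The oxygen groups do not overlap in this difference at either age. Fits with the actin difference as a term therefore cannot tell RNA integrity apart from oxygen. Sex-linked transcripts differed as well. All 5 P14 arrays had low Xist (6.63 to 6.99) and high Y-linked genes, whereas the female pattern was seen in P29 hyperoxia replicate 2 and in both room air arrays at P29 (Xist 12.48 to 12.66, mean of Y-linked genes 3.47 to 4.04). P29 hyperoxia replicate 1 showed the male pattern and in P29 hyperoxia replicate 3 Xist (11.94) and the Y-linked genes (7.71) were high together. Results at P29 are therefore also given with P29 hyperoxia replicate 2 alone where that ends a call.

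The 250 bases before the transcription start of the members with the highest and the lowest P14 difference, Esm1 and Dll4, are shown here, from RefSeq on GRCm38.p6, with capitals marking the core of the hypoxia response element (ACGTG or GCGTG, on either strand). Esm1 starts on chromosome 13, plus strand, and its stretch is chr13:113209409-113209658. Dll4 starts on chromosome 2, plus strand, at chr2:119325534-119325783.
Esm1: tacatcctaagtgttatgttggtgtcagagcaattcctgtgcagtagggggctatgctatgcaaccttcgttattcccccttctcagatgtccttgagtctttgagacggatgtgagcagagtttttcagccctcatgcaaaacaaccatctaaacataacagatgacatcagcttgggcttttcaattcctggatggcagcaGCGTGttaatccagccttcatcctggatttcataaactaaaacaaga
Dll4: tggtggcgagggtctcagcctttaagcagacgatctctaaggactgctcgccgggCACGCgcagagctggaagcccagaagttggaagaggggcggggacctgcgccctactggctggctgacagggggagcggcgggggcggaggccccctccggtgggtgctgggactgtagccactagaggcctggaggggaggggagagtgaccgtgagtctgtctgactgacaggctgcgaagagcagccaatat
The promoter table held 5 of the 8 members, and the hypoxia core was found in 4 of them (Esm1, Dll4, Cxcr4 and Unc5b, once each) and not in Apln. It occurred in 38.6% of all 32851 promoter stretches of this length. Counted from the start site, the match begins at position -47 in Esm1 and at -195 in Dll4, where it lies on the minus strand. The letters TGGGAA, the core bound by the Notch effector RBPJ, and TGAGTCA, the AP-1 core, were in none of the 5 stretches, against 21.6% and 4.46% of all stretches with either strand searched. A match is a run of letters and not a measured binding site.

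**Figure D1:**
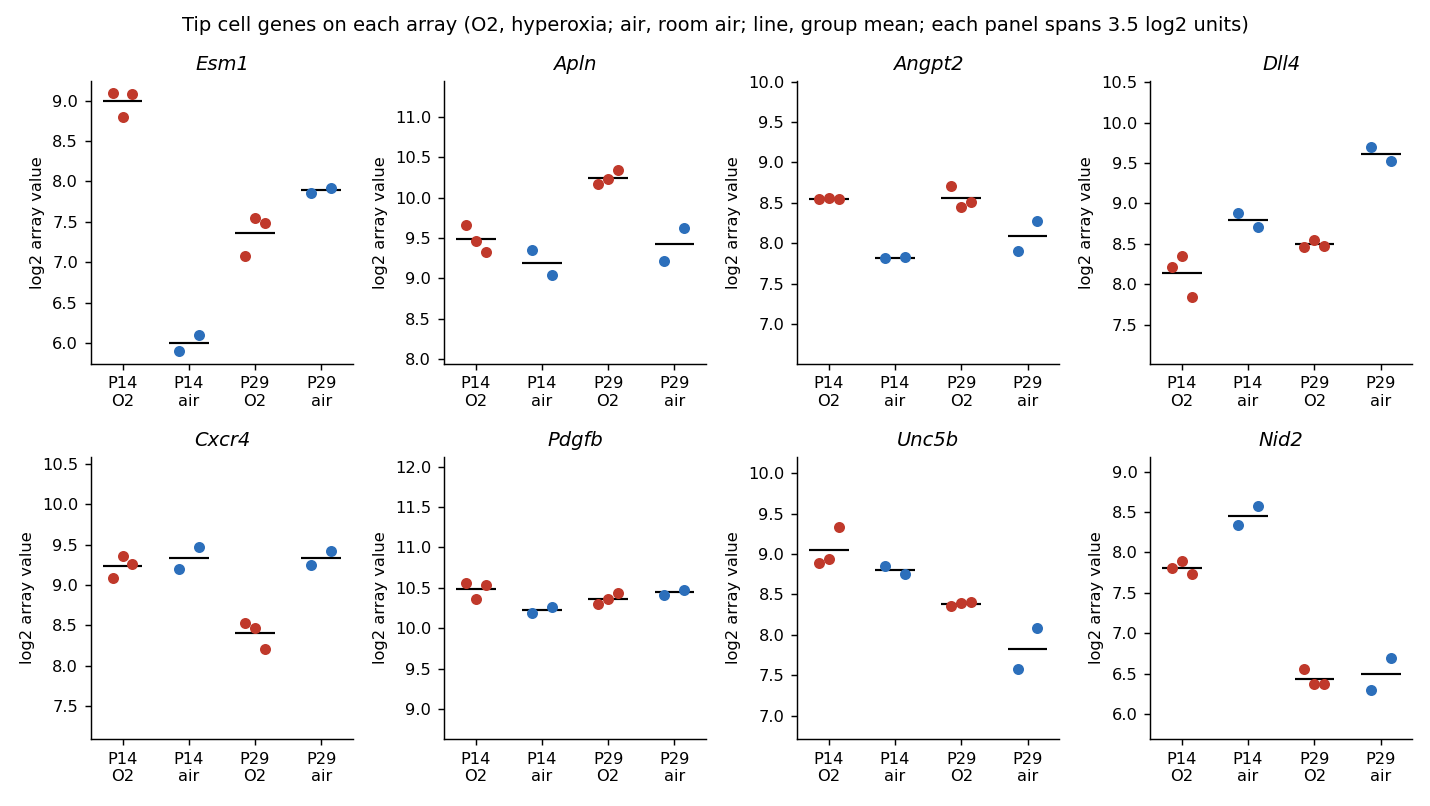
Log2 array value (y axis) of each tip cell gene on each of the 10 arrays, by group (x axis; O2, hyperoxia; air, room air); points are arrays, lines are group means, and all panels have the same height in log2 units. Esm1 is near 9 on the P14 hyperoxia arrays and near 6 on the P14 room air arrays, a wider gap than in any other panel.

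Esm1, or endocan, is a secreted proteoglycan of activated endothelium and among the most used markers of tip cells. It read 9.09, 8.80 and 9.09 in P14 hyperoxia, against 5.89 and 6.09 in P14 room air. At P29 it read 7.07, 7.55 and 7.48 in hyperoxia, against 7.86 and 7.92 in room air. The P14 groups were 7.99-fold apart, higher in hyperoxia, while at P29 every hyperoxia array lay below both room air arrays, 1.43-fold lower on average. The order of the group means was P14 hyperoxia (8.99 ± 0.17), P29 room air (7.89 ± 0.04), P29 hyperoxia (7.37 ± 0.26) and P14 room air (5.99 ± 0.14; SD, n = 3, 2, 3 and 2), and the arrays of neighbouring groups in this order do not overlap. The low group was P14 room air: Esm1 was 3.72-fold higher at P29 than at P14 in room air and 3.09-fold lower at P29 than at P14 in hyperoxia. The gene has only 1 probe set, so no other measurement of it was at hand. With the actin difference as a term in the fit the differences were 2.71 at P14 and -0.79 at P29 on the log2 scale, against -0.52 at P29 without it.

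Apln, the precursor of the peptide apelin, read 9.66, 9.46 and 9.33 in P14 hyperoxia, against 9.35 and 9.04 in P14 room air. The P29 readings of Apln were 10.17, 10.23 and 10.35 in hyperoxia, against 9.22 and 9.63 in room air. The P14 arrays overlapped and the P29 arrays did not. At P29 Apln rose 1.77-fold in hyperoxia, by 0.83 ± 0.14 on the log2 scale (SE; limma adjusted p = 0.00048). At P14 the difference was 0.29 ± 0.14 (adjusted p = 0.0961). The effects at the ages, 0.83 at P29 and 0.29 at P14, differed by 0.53 (95% interval 0.09 to 0.97), which did not pass after adjustment (adjusted p = 0.079) but did without P29 room air replicate 2 (0.74, adjusted p = 0.0275). Of the 7 members tested, Apln and Cxcr4 kept their P29 calls with the actin difference as a term (for Apln 1.12, adjusted p = 0.0294), and the call also held with P29 hyperoxia replicate 2 alone (0.80, adjusted p = 0.00924).

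Angpt2, angiopoietin 2, antagonizes Angpt1 at the receptor Tek and loosens vessels for sprouting. It read 8.55, 8.56 and 8.55 in P14 hyperoxia, against 7.81 and 7.83 in P14 room air. In the older lungs it read 8.71, 8.45 and 8.52 in hyperoxia, against 7.90 and 8.28 in room air. Apln and Unc5b were also higher in hyperoxia on average at both ages, but passed at P29 only. Of the members tested, Angpt2 alone was called higher at both ages, by 0.73 ± 0.11 at P14 (SE; 1.66-fold, limma adjusted p = 0.000291) and by 0.47 ± 0.11 at P29 (1.38-fold, adjusted p = 0.00419). The P29 call rests on P29 room air replicate 1, without which the difference was 0.28 (adjusted p = 0.0643). With P29 hyperoxia replicate 2 alone it was 0.36 (adjusted p = 0.0703), and with all probe sets averaged 0.20 (adjusted p = 0.0881). With the actin difference as a term neither call stood (adjusted p = 0.119 at P14 and 0.256 at P29). A second probe set of Angpt2 stayed below the filter, between 4.14 and 4.64 on all arrays.

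Dll4, the Notch ligand of tip cells, read 8.22, 8.35 and 7.84 in P14 hyperoxia, against 8.88 and 8.71 in P14 room air. The P29 arrays read 8.46, 8.54 and 8.48 in hyperoxia, against 9.70 and 9.53 in room air. Every hyperoxia array lay below every room air array of its age. Dll4 fell by 0.66 ± 0.13 at P14 (SE; 1.58-fold, limma adjusted p = 0.00172) and by 1.12 ± 0.13 at P29 (2.17-fold, adjusted p = 4.09e-05). The other probe set of Dll4 read 8.22, 8.36 and 8.34 in P14 hyperoxia against 8.62 and 8.65 in P14 room air, and 8.54, 8.64 and 8.58 in P29 hyperoxia against 9.16 and 9.10 in P29 room air. It separated the groups in the same direction at both ages. With the actin difference as a term the P14 effect on the leading probe set was -0.00034 (adjusted p = 0.999) and the P29 effect -0.50 (adjusted p = 0.0973). The actin difference and oxygen go together at both ages, so this fit cannot tell them apart. The part of RNA integrity in the change of Dll4 was not tested.

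Pdgfb, the growth factor that recruits pericytes, gave opposite readings on its probe sets. The brighter one read 10.56, 10.36 and 10.54 in P14 hyperoxia, against 10.19 and 10.26 in P14 room air, a rise of 0.26 ± 0.09 (SE; limma adjusted p = 0.0236). The dimmer one read 7.63, 7.42 and 7.38 in P14 hyperoxia, against 7.83 and 7.55 in P14 room air, a difference of -0.21 (adjusted p = 0.148). No direction can be given for Pdgfb at P14. At P29 the brighter probe set read 10.30, 10.36 and 10.43 in hyperoxia, against 10.41 and 10.48 in room air, and did not pass the test (-0.08 ± 0.09, adjusted p = 0.438). On the dimmer one Pdgfb was lower in P29 hyperoxia, at 7.47, 7.34 and 7.21 against 7.88 and 7.85 in P29 room air (-0.53, adjusted p = 0.00317). The P14 call on the brighter probe set also ended without P14 room air replicate 1 (0.22, adjusted p = 0.12), without P14 hyperoxia replicate 1 (0.22, adjusted p = 0.0734), without P14 hyperoxia replicate 3 (0.23, adjusted p = 0.0655), after quantile normalization (0.15, adjusted p = 0.157) and with the replicate number as a block (0.23, adjusted p = 0.0589).

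Cxcr4, the receptor of the chemokine Cxcl12, guides tip cells and is also abundant on lymphocytes and neutrophils. It read 9.09, 9.36 and 9.25 in P14 hyperoxia, against 9.20 and 9.47 in P14 room air, with overlapping arrays (-0.10 ± 0.12, SE; limma adjusted p = 0.51). At P29 it read 8.53, 8.47 and 8.21 in hyperoxia, against 9.25 and 9.42 in room air. Cxcr4 fell 1.91-fold at P29, by 0.93 ± 0.12 (adjusted p = 8.73e-05), and P29 hyperoxia was the lowest of the 4 groups, which otherwise lay between 9.24 and 9.33. The effects at the ages, -0.93 at P29 and -0.10 at P14, differed by -0.83 ± 0.17 (adjusted p = 0.00606). The P29 call held with the actin difference as a term (-1.11, adjusted p = 0.021) and with P29 hyperoxia replicate 2 alone (-0.86, adjusted p = 0.00199).

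Lymphocyte and neutrophil markers were mostly lower at P29, as Cxcr4 was, while macrophage markers went both ways. Of 8 T and natural killer cell markers measured 8 fell at P29, and of 7 B cell markers measured 7 fell. Of 9 measured neutrophil markers 8 fell and 1 rose. Of 10 macrophage markers 4 fell and 2 rose at P29 with a median of -0.06, and 3 fell and 3 rose at P14. Of all genes tested 25.6% were called lower and 34.2% higher at P29, and 22.8% lower and 32.3% higher at P14. The mean log2 value of the T and natural killer cell markers was 5.88 to 5.92 on P29 hyperoxia arrays against 7.45 to 7.48 on P29 room air arrays, and that of the B cell markers 6.08 to 6.12 against 7.34 to 7.73. At P14, where Cxcr4 did not pass, 6 of 8 T and natural killer cell markers, 4 of 7 B cell markers and 8 of 9 neutrophil markers fell and none rose. The part of leukocytes in the Cxcr4 result was not tested.

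Unc5b, a netrin receptor that restrains tip cells, read 8.89, 8.93 and 9.34 in P14 hyperoxia, against 8.85 and 8.76 in P14 room air. At P29 it read 8.36, 8.39 and 8.41 in hyperoxia, against 7.57 and 8.08 in room air. The hyperoxia arrays lay above the room air arrays at both ages, narrowly so at P14 (0.25 ± 0.15, SE; limma adjusted p = 0.185). With the actin difference as a term the P14 value had the opposite sign (-0.47, adjusted p = 0.26). At P29 Unc5b rose 1.47-fold, by 0.56 ± 0.15 (adjusted p = 0.00939), and its other probe set read 7.82, 7.81 and 7.70 in hyperoxia against 7.39 and 7.44 in room air. The size of the P29 effect rests on P29 room air replicate 1, without which it was 0.30 (adjusted p = 0.137). With P29 hyperoxia replicate 2 alone it was 0.56 (adjusted p = 0.0645), and with the actin difference as a term -0.11 (adjusted p = 0.764).

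Nid2, nidogen 2, links laminin and collagen IV in the basement membrane. It read 7.81, 7.89 and 7.73 in P14 hyperoxia, against 8.34 and 8.57 in P14 room air. At P29 it read 6.56, 6.37 and 6.37 in hyperoxia, against 6.30 and 6.70 in room air. The groups were apart at P14 and overlapped at P29. Nid2 fell by 0.65 ± 0.12 at P14 (SE; 1.56-fold, limma adjusted p = 0.00125), whereas the P29 difference was -0.06 ± 0.12 (adjusted p = 0.678). The effects differed by 0.58 ± 0.18 (adjusted p = 0.0342), a call that rests on several arrays. It was 0.38 when P29 room air replicate 1 was left out (adjusted p = 0.141), 0.47 without P14 room air replicate 2 (adjusted p = 0.135) and 0.52 with P29 hyperoxia replicate 2 alone (adjusted p = 0.14). It also ended without P14 hyperoxia replicate 1, P14 hyperoxia replicate 3 or P29 hyperoxia replicate 1 (adjusted p = 0.0606 to 0.0741). With the actin difference as a term the P14 call ended at an adjusted p of 0.171.

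**Figure D2:**
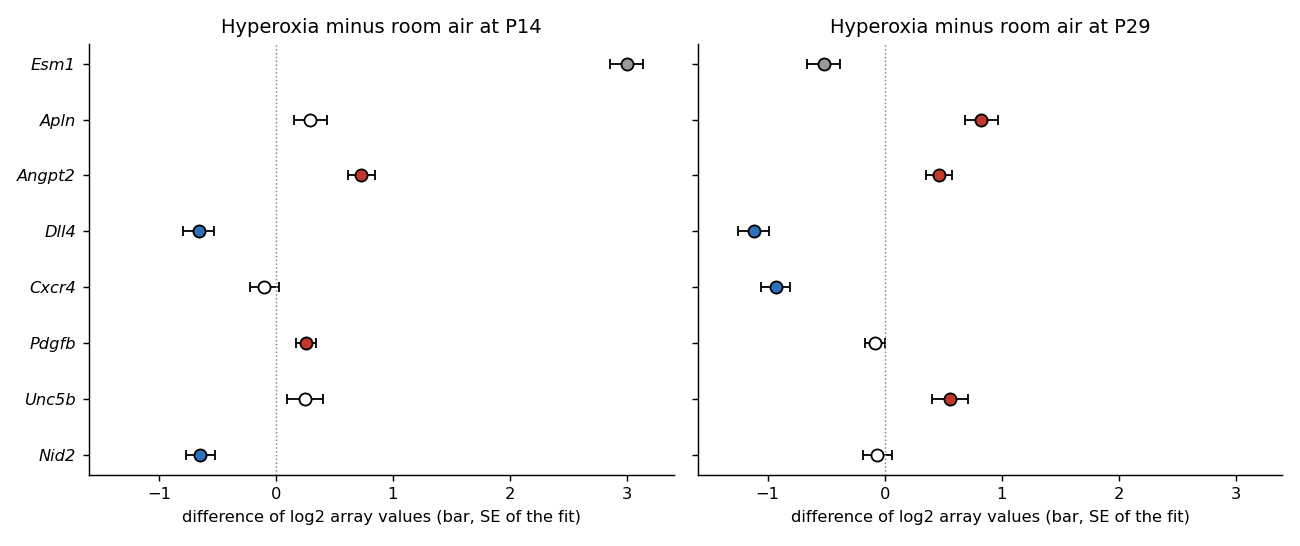
Difference of log2 array values, hyperoxia minus room air (x axis), of each tip cell gene at P14 and at P29, with bars for the SE of the fit; red and blue points passed the limma test as higher and lower, white points did not, and Esm1 in grey was not tested. Angpt2 is to the right and Dll4 to the left of 0 at both ages and both passed at each, while Esm1 is 7.99-fold higher in hyperoxia at P14 and at -0.52 at P29. Apln and Unc5b are also to the right and Cxcr4 and Nid2 to the left at both ages, but each passed at 1 age only.

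The members moved in both directions. At P14, 2 of the 7 tested members were called higher (Angpt2 and Pdgfb) and 2 lower (Dll4 and Nid2), where 32.3% of all 14988 genes tested were called higher and 22.8% lower, 55% in all. At P29, 3 were called higher (Apln, Angpt2 and Unc5b) and 2 lower (Dll4 and Cxcr4), against 34.2% and 25.6% of all genes, 59.7% in all. For the difference of the effects 1 was called higher (Nid2) and 1 lower (Cxcr4), against 11% and 11.6%, 22.5% in all. These shares are near the background and show nothing particular to the members. The hyperoxia and room air arrays of 6 of the 8 members did not overlap at P14, as for 71.3% of all genes, and those of 6 of 8 did not overlap at P29, as for 74.3%. Esm1, chosen by these differences, is among the 6 at both ages, so its part in the counts is no result.

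Pan-endothelial markers were lower on average in hyperoxia. The mean of the 14 pan-endothelial markers was 10.66 ± 0.07 in P14 hyperoxia against 10.79 ± 0.01 in P14 room air, and 10.47 ± 0.07 in P29 hyperoxia against 10.87 ± 0.09 in P29 room air (SD, n = 3 and 2 at each age). Of these markers 3 rose and 5 fell at P14 with a median of -0.17, and 1 rose and 9 fell at P29 with a median of -0.64, where the median of all genes was 0.04 at both ages. Over all genes 32.3% rose and 22.8% fell at P14, and 34.2% rose and 25.6% fell at P29. Pecam1, an adhesion molecule of endothelial junctions, fell by 0.88 ± 0.10 at P14 and by 1.32 ± 0.10 at P29. Clec14a, an endothelial lectin, was at 0.18 at P14 and fell by 1.41 ± 0.09 at P29, with 0.87 and -0.82 on its other probe set. Mmrn2, an endothelial matrix protein, rose by 1.24 ± 0.11 and 1.79 ± 0.11. Once the mean of these markers was subtracted from each array, Apln (0.42, adjusted p = 0.0189) and Unc5b (0.38, adjusted p = 0.0307) were also called higher at P14. On that scale 5 of the 7 tested members were called higher at P29, namely Apln (1.23), Angpt2 (0.87), Unc5b (0.97), Pdgfb (0.33) and Nid2 (0.35), and Dll4 (-0.71) and Cxcr4 (-0.52) stayed lower. This scale moves the median of all genes to 0.17 at P14 and to 0.45 at P29, so Pdgfb and Nid2 lay below that median at P29. Of all 14988 genes tested, 9473 were called higher and 800 lower at P29. A rise on this scale is thus not particular to the members. Esm1 was 3.13 higher at P14 and 0.11 lower at P29 on it.

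Markers of the capillary types of the mature lung were called in both directions at P14, and at P29 those that passed were lower. The shares of all genes called lower were 22.8% at P14 and 25.6% at P29. Of 6 aerocyte markers 4 fell and 1 rose at P14, and 4 fell at P29. Car4, a carbonic anhydrase, was down by 0.68 ± 0.08 at P14 and by 0.98 ± 0.08 at P29. The endothelin receptor Ednrb was down by 1.52 ± 0.09 at P29 and differed by -0.04 at P14 on its leading probe set. Its 2 other probe sets gave -1.37 and -1.19 at P14, and -2.31 and -2.55 at P29. Apln, also a marker of aerocytes, ran the other way at P29. Of 8 general capillary markers 2 rose and 3 fell at P14, and 8 fell at P29 with a median of -1.04. Among them Gpihbp1, which anchors lipoprotein lipase, fell by 3.13 ± 0.20 at P29, and the receptor Kit fell by 3.36 ± 0.17. In the same list Plvap, a protein of endothelial fenestrae, rose by 1.02 ± 0.10 at P14 and fell by 0.91 ± 0.10 at P29.

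Receptors, ligands and related genes of the members were set beside them. Of 14 such genes 3 rose and 5 fell at P14 with a median of -0.12, and 2 rose and 8 fell at P29 with a median of -0.38. For all genes the shares that rose and fell were 32.3% and 22.8% at P14, and 34.2% and 25.6% at P29. Aplnr, the apelin receptor, was at 10.75 in P29 hyperoxia against 11.78 in P29 room air and fell by 1.03 ± 0.14 (limma adjusted p = 0.000125), at the age at which Apln rose. At P14 the Aplnr difference was -0.42 ± 0.14 (adjusted p = 0.0289), a call that ended in 5 of 22 alternatives, among them without P14 room air replicate 2 (-0.32, adjusted p = 0.175), without P14 room air replicate 1 (-0.52, adjusted p = 0.0519) and without P14 hyperoxia replicate 1 (-0.30, adjusted p = 0.0951). The other probe set gave -0.53 at P14 and -1.14 at P29. Tek, the receptor of Angpt2, fell by 1.69 ± 0.11 at P29 and differed by 0.03 ± 0.11 at P14 (adjusted p = 0.846). The leading probe set of Angpt1 passed at neither age (0.14 at P14 and -0.20 at P29), and another gave -1.06 and -1.38. Cxcl12, the ligand of Cxcr4, fell by 1.51 ± 0.13 at P29 on its leading probe set, whereas 2 others gave -0.71 and 1.21, so no direction can be given for it. Ackr3, the scavenging receptor of Cxcl12, rose by 1.32 ± 0.10 at P14 and by 1.69 ± 0.10 at P29. Pdgfrb, the receptor of Pdgfb on pericytes, was at -0.37 ± 0.12 at P14 (adjusted p = 0.0215) and at 0.05 ± 0.12 at P29, with -0.86 and -0.53 on its other probe set. The P14 value was -0.17 without P14 room air replicate 2 (adjusted p = 0.248), -0.57 without P14 room air replicate 1 and -0.31 without P14 hyperoxia replicate 1 (adjusted p = 0.0707). Pdgfra, the related receptor of fibroblasts, fell by 1.28 ± 0.11 at P14 and by 0.65 ± 0.11 at P29. Of the netrins, Ntn1 fell by 0.50 ± 0.11 at P14 (adjusted p = 0.00239) and by 0.86 ± 0.11 at P29 (adjusted p = 5.64e-05), with -0.68 and -1.11 on its other probe set. Another, Ntn4, rose by 0.84 ± 0.07 at P14 and fell by 0.41 ± 0.07 at P29 on its leading probe set, but another probe set gave -0.43 and -1.27.

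Notch genes were called in both directions. Of 15 Notch pathway genes 6 rose and 3 fell at P14 with a median of 0.22, and 5 rose and 2 fell at P29 with a median of 0.10. These counts are near the shares of all genes, 32.3% and 22.8% at P14, and 34.2% and 25.6% at P29. Jag1, a Notch ligand that opposes Dll4 in sprouting, rose by 1.49 ± 0.16 at P14 (limma adjusted p = 3.13e-05) and by 0.92 ± 0.16 at P29 (adjusted p = 0.000507). One of its other probe sets gave 1.26 and 0.62, and another -0.23 and -0.20. Lfng, the sugar transferase that makes Notch more responsive to Dll4, fell by 1.11 ± 0.15 at P14 and by 1.17 ± 0.15 at P29. Notch targets went different ways. Hey1 fell by 0.87 ± 0.17 at P29 (adjusted p = 0.00103) and differed by 0.19 ± 0.17 at P14 (adjusted p = 0.336). Heyl rose by 0.83 ± 0.12 at P29 (adjusted p = 0.000175) and by 0.35 ± 0.12 at P14 (adjusted p = 0.0291) on its leading probe set, but another of its probe sets gave -0.13 and -0.47, and the P14 value was 0.19 without P14 room air replicate 1 (adjusted p = 0.281). Nrarp rose by 0.60 ± 0.09 at P14 (adjusted p = 0.000176) and by 0.23 ± 0.09 at P29 (adjusted p = 0.0342), with 0.05 and -0.16 on its other probe set, and the P29 call ended in 9 of 22 alternatives, among them without P29 room air replicate 2 (0.16, adjusted p = 0.236). Among the receptors, Notch1 was at 0.35 ± 0.13 at P14 on its leading probe set (adjusted p = 0.0405) and at -0.21 on another. That call ended in 10 of 22 alternatives, and the value was 0.10 without P14 room air replicate 1 (adjusted p = 0.5) and 0.60 without P14 room air replicate 2. The endothelial Notch4 did not pass at either age (adjusted p = 0.205 at P14 and 0.0662 at P29).

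Of the 9 VEGF ligands and receptors 3 rose and 0 fell at P14 with a median of 0.13, and 2 rose and 2 fell at P29 with a median of -0.07. Among all genes 32.3% rose and 22.8% fell at P14, and 34.2% rose and 25.6% fell at P29. Kdr, the VEGF receptor that drives tip cells, rose by 0.31 ± 0.08 at P14 (limma adjusted p = 0.00808) and differed by -0.07 ± 0.08 at P29 (adjusted p = 0.472). The decoy receptor Flt1 rose by 0.96 ± 0.15 at P14, and its 3 other probe sets gave 0.67 to 1.26 there. At P29 Flt1 differed by -0.27 ± 0.15 (adjusted p = 0.134). Vegfc, a ligand for lymphatic and sprouting endothelium, rose by 1.15 ± 0.09 at P14 and by 0.50 ± 0.09 at P29. Vegfa differed by 0.13 ± 0.10 at P14 (adjusted p = 0.284) and fell by 0.42 ± 0.10 at P29 (adjusted p = 0.00316), with another probe set at -0.82 and -1.25.

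A list of 14 other genes reported as enriched in tip cells gave 6 rises and 1 fall at P14 with a median of 0.08, and 8 rises and 3 falls at P29 with a median of 0.57. For this list and those below, 32.3% of all genes rose and 22.8% fell at P14, and 34.2% and 25.6% at P29. Cd34, a sialomucin of tip cell filopodia, fell by 0.33 ± 0.08 at P14 and rose by 1.19 ± 0.08 at P29. Igfbp3, a binding protein of insulin-like growth factors, fell by 3.27 ± 0.16 at P29, with -3.34 on its other probe set. At P14 it was at 0.59 ± 0.16 (limma adjusted p = 0.00815) and at -0.06 on the other probe set. The P14 call ended without P14 room air replicate 1 (0.47, adjusted p = 0.0882) and with the actin difference as a term (0.03, adjusted p = 0.951). The laminin chain Lamb1 rose by 0.60 ± 0.08 at P14 and by 1.45 ± 0.08 at P29 on its leading probe set, with 0.86 and 1.66 on another and -0.94 and -0.28 on 1 more. Hypoxia response genes, to which Esm1, Apln and Angpt2 are known to belong in endothelial cells, rose in 13 of 17 cases and fell in 1 at P14 with a median of 0.53, against 6 and 2 of 17 at P29 with a median of 0.09. Their share of rises at P29 was near that of all genes, 34.2%. These counts are of leading probe sets. At P14 the other probe sets of Adm, Egln3, Pdk1, Pgk1 and Slc2a1 had the same sign as the leading ones. Those of P4ha1 (-1.33), Pfkfb3 (-0.67) and Vegfa (-0.82) had the opposite sign, and those of Ero1a and Ndrg1 were split. The glucose transporter Slc2a1 rose by 2.27 ± 0.12 at P14 and by 1.06 ± 0.12 at P29, although 1 of its other probe sets was at -0.37 at P29. Ankrd37, a hypoxia-induced ankyrin repeat protein, rose by 2.10 ± 0.10 and 0.34 ± 0.10, although the P29 value, at 0.29, no longer passed once P29 room air replicate 2 was left out (adjusted p = 0.0808). Of 15 cell cycle genes 10 rose at P14 and 15 at P29.

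**Figure D3:**
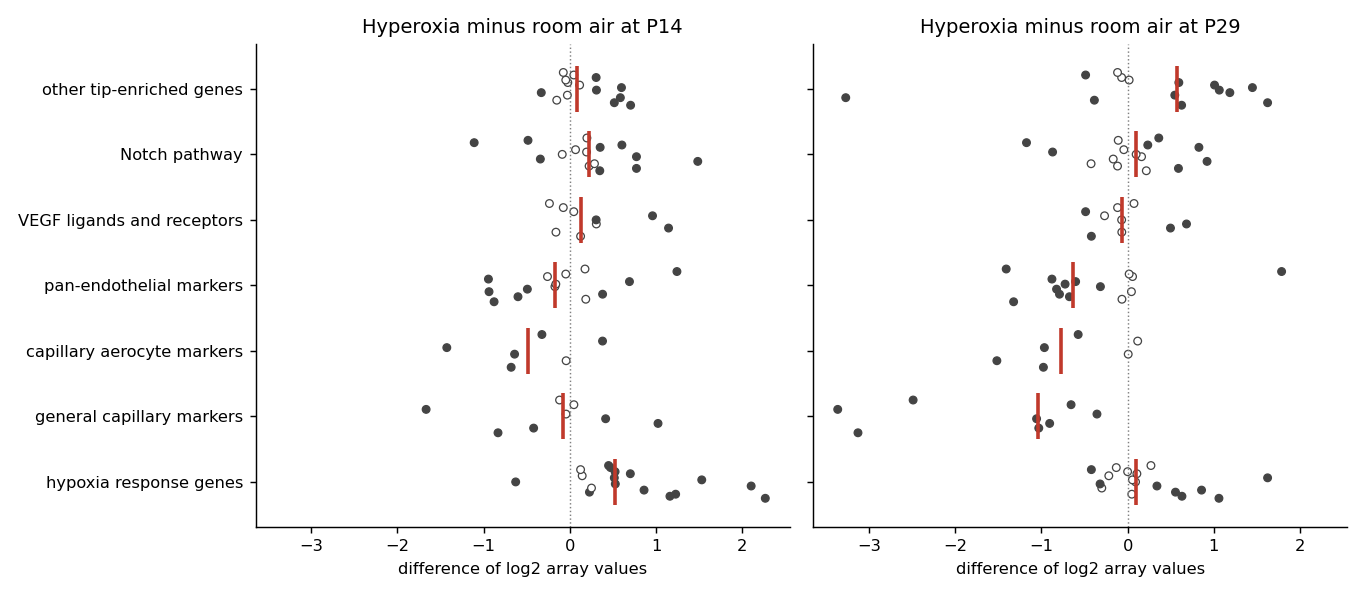
Difference of log2 array values, hyperoxia minus room air (x axis), for each gene (point) of 7 gene lists (rows) at P14 and at P29; filled points passed the limma test, open points did not, and red lines are list medians. The general capillary markers lie to the left of 0 at P29 with a median of -1.04, and the hypoxia response genes to the right at P14 with a median of 0.53.

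With age, the members went different ways in room air. Dll4 rose by 0.82 ± 0.15 in P29 room air relative to P14 room air (SE; 1.76-fold, limma adjusted p = 0.000897), Unc5b fell by 0.97 ± 0.17 (1.97-fold, adjusted p = 0.000762) and Nid2 fell by 1.96 ± 0.14 (3.89-fold, adjusted p = 9.6e-07). Apln, Angpt2, Cxcr4 and Pdgfb did not pass (0.23, 0.27, 0.00 and 0.22). These are 1 member higher and 2 lower of 7, against 22.2% and 19.1% of all genes, 41.3% in all. The arrays of 6 of the 8 members did not overlap between the ages, as for 69% of all genes. Esm1, which was chosen by its values, is among these 6. All P14 arrays showed the male pattern of sex-linked transcripts and both P29 room air arrays the female one, so age and sex cannot be told apart here.

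In hyperoxia, Nid2 fell by 1.38 ± 0.11 in P29 relative to P14 lungs (SE, 2.59-fold, limma adjusted p = 1.15e-05). Cxcr4 fell by 0.83 ± 0.11 (adjusted p = 0.000307) and Unc5b by 0.67 ± 0.14 (adjusted p = 0.00449). Apln rose by 0.76 ± 0.13 (adjusted p = 0.0012). Dll4 rose by 0.36 ± 0.12 (adjusted p = 0.0443), a call that ended without any 1 of 9 arrays, each left out in turn (adjusted p = 0.0508 to 0.134). Angpt2 had the same mean at both ages in hyperoxia (8.56 at P29 and 8.55 at P14; difference 0.00, 95% interval -0.21 to 0.22). With 2 higher and 3 lower of 7, the background is 15.4% and 11.7%, 27.1% in all, and 6 of the 8 members did not overlap, as for 45.3% of all genes. Here too the chosen Esm1 is among the 6. Xist was low on the P14 hyperoxia arrays (6.82 to 6.99). On P29 hyperoxia replicates 1, 2 and 3 it was 7.12, 12.54 and 11.94. Age and sex are thus not fully separable in hyperoxia either. With P29 hyperoxia replicate 2 alone, age and sex go fully together. The Unc5b call ended in that fit, which cannot serve as a check for sex here. The age and oxygen comparisons share arrays and are not independent of each other.

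**Figure D4:**
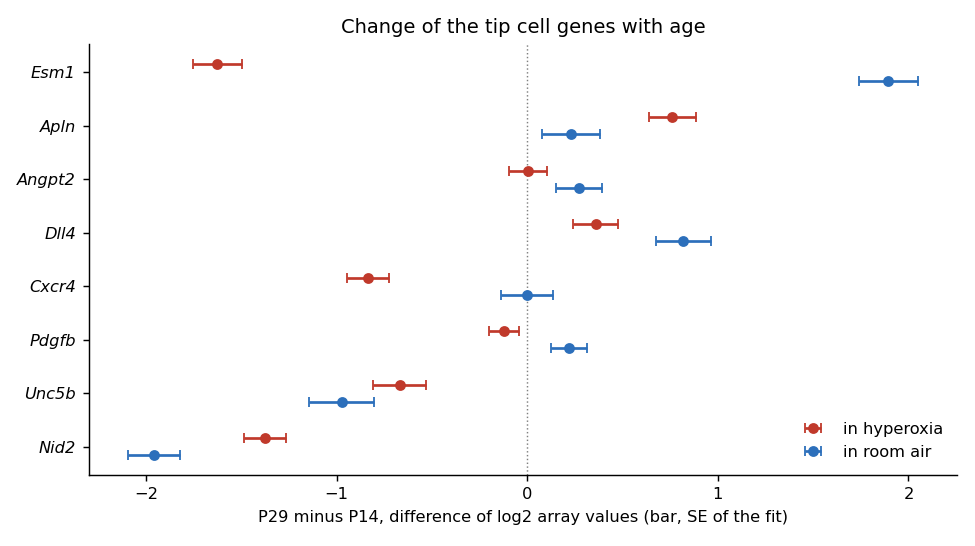
Difference of log2 array values, P29 minus P14 (x axis), of each tip cell gene in hyperoxia (red) and in room air (blue), with bars for the SE of the fit. Nid2 and Unc5b are lower at P29 in both conditions, and Esm1 is lower at P29 in hyperoxia (-1.63) and higher at P29 in room air (1.89).

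Among members, the pattern of Pdgfb over the 10 arrays was most like that of Esm1 (Pearson r = 0.87 on its brighter probe set), followed by Angpt2 (0.65), and Dll4 ran against it (-0.35). These are descriptions, since the arrays fall into 4 groups. Among the 4307 genes whose values spanned at least 1 on the log2 scale, the 10 most like Esm1 were Npr3, the clearance receptor of natriuretic peptides (r = 0.96), the membrane mucins Muc4 (0.96) and Muc16 (0.95), Exoc6 (0.95), the transcription factors Foxc1 (0.95) and Atf3 (0.95), Cds1 (0.95), the retinoic acid enzyme Aldh1a2 (0.94), Ndrg1 (0.94) and the uroplakin Upk1b (0.94). Muc4, the most like Esm1 over the 4 group means among these 10 (r = 0.999), was at 8.70 in P14 hyperoxia against 4.70 in P14 room air, and at 6.56 in P29 hyperoxia against 7.34 in P29 room air. Ndrg1 was named by its leading probe set, which differed by 1.53 at P14. Its other probe sets gave 0.52, -0.27, 0.58 and -0.43 there.

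For the other members the 3 genes most alike were Elfn1, Inhba and Ifi202b for Apln (r = 0.94 to 0.96), Zcchc2, Zcchc7 and Zfp930 for Angpt2 (0.97 to 0.98), Selenok, Cybb and Lpin1 for Dll4 (0.97 each), and Rnf144a, Sgip1 and Glb1l3 for Cxcr4 (0.95 to 0.96). They were Stx6, Gfra2 and Cdh22 for Unc5b (0.96 each), Pxdn, Itm2a and Meg3 for Nid2 (0.98 each), and Serpinb1a, Rasgef1b and Esm1 for Pdgfb (0.87 to 0.92). Inhba, a subunit of activin, was at 9.38 in P29 hyperoxia against 7.25 in P29 room air. Cybb, the oxidase of phagocytes, was at 8.59 in P29 hyperoxia against 10.09 in P29 room air.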

How the data were processed

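Total RNA of 10 lung samples was hybridised as biotin-labelled cRNA to Affymetrix arrays, per the labels' protocols. The authors deposited log2 values of 45101 probe sets. Per the submitters' processing notes, Partek 6.4 and GCRMA were used, and no settings were given. Groups and replicate numbers come from the sample titles. Names of probe sets come from GEO's platform annotation: 34945 had 1 symbol and were no control, 932 had several, and 0 symbols changed against RefSeq (GRCm38.p6). Each gene was given by its probe set of highest mean, and the filter kept the 14988 genes that reached a log2 value of 5 on 2 arrays or more, all 8 members among them. The 4 group means were fitted together with limma 3.58.1 in R 4.3.3 (lmFit, eBayes; 6 residual and 5.09 prior degrees of freedom), with two-sided tests and Benjamini-Hochberg adjustment over all genes kept at a threshold of 0.05. Precision is limited by the number of arrays.

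Members and gene lists were chosen with earlier results of these data known, and no p-value is adjusted over a list alone. The genes named are the members, their receptors and ligands, up to 5 genes of smallest p of each list described, and the genes of highest Pearson r with a member. On simulated P14 arrays of 14988 genes, 58 of 100 genes changed by 0.5 and 93 of 100 changed by 1 on the log2 scale were called, with 8 false calls. Far fewer genes changed there than in the data, where 55% were called at P14. The adjustment was thus stricter there, and these shares need not hold for the data. Same-numbered arrays of different groups were checked for pairing: their deviations from group means correlated at -0.10 to 0.20, with 2 of 13 pairs over 0.1. In groups of 2 arrays the deviations are mirror images, so this check is weak and cannot exclude pairing. The main fit used no pairing. Alternatives were other filters, probe set averages, 3 scalings, other fits and leaving out each array. The fit without P29 hyperoxia replicates 1 and 3 was chosen after seeing the data.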

Additional observations from a re-analysis of the deposited data

Results flagged for a closer look

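The effect of hyperoxia differed between P29 and P14 for 2 of the 7 members tested, by limma on the difference of the effects with adjustment over all genes. For Cxcr4 the P29 effect minus the P14 effect was -0.83 (adjusted p = 0.00606), and for Nid2 it was 0.58 (adjusted p = 0.0342). Among the 33 other genes named beside the members, the effect at P29 was the lower one for Igfbp3 (-3.86), Gpihbp1 (-2.30), Plvap (-1.93), Ankrd37 (-1.77), Tek (-1.72), Kit (-1.70), Clec14a (-1.59), Ednrb (-1.48), Ntn4 (-1.25), Flt1 (-1.23), Slc2a1 (-1.21), Hey1 (-1.07), Vegfc (-0.65), Vegfa (-0.55), Pecam1 (-0.44), Kdr (-0.38) and Nrarp (-0.37). It was the higher one for Cd34 (1.52), Lamb1 (0.85), Pdgfra (0.62) and Mmrn2 (0.54). A lower effect at P29 does not mean no fall at P14. Gpihbp1 and Kit, among others, were also called lower at P14, and Ednrb was at -1.37 and -1.19 there on its 2 other probe sets. For Cxcl12 the value was -1.83 on the leading probe set and -0.66 with its probe sets averaged, and no direction can be given, since its other probe sets moved alike at both ages (-0.71 at P29 and -0.71 at P14 on one, 1.21 at P29 and 1.35 at P14 on the other). Adjusted p lay between 4.81e-06 for Igfbp3 and 0.0487 for Pecam1. Several of these calls were easily lost: that of Nrarp ended in 17 of 21 alternatives, that of Pecam1 in 15 (adjusted p up to 0.454) and that of Kdr in 11 (up to 0.611). Those of Vegfa, Mmrn2 and Vegfc ended in 4, 3 and 1 of 21, and that of Nid2 in 6. Of all genes tested, 22.5% passed this test. All P14 arrays showed the male pattern of sex-linked transcripts, both P29 room air arrays the female one, and the P29 hyperoxia arrays were mixed. Age and sex therefore cannot be told apart in these differences. Groups of 2 or 3 arrays are too small for a test of single outlying arrays.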

How the results depend on the processing

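Over 14 planned kinds of alternative and the 1 added, 703 of 778 values of the 7 tested members kept their sign and their side of the threshold, as did 3304 of 3597 of other named genes. Another 15 and 47 changed sign while past the threshold in neither setting, among them Cxcr4 at P14 (0.03 without P14 room air replicate 2 and with the pan-endothelial mean subtracted), Nid2 at P29 (0.14 without P29 room air replicate 2), Unc5b at P14 (-0.47), Tek at P14 (-0.23) and Notch4 at P14 (-0.56), these 3 with the actin term. That term also ended the P14 calls of Cd34, Flt1, Gpihbp1, Igfbp3, Kdr, Lamb1, Notch1, Nrarp, Ntn1, Pdgfrb and Pecam1. At P29 it ended the calls of Ankrd37, Heyl, Jag1, Nrarp, Ntn4, Slc2a1, Vegfa and Vegfc. With a call on at least 1 side, the direction reversed on probe set averages at P14 for Angpt1 (-0.46), Vegfa (-0.35) and Lamb1 (-0.0022), with the pan-endothelial mean subtracted at P29 for Pdgfb (0.33), Nid2 (0.35) and Kdr (0.34), with the actin term for Unc5b at P29 (-0.11) and Heyl at P14 (-0.13), and on the other probe set at P14 for Pdgfb (-0.21). The cause was not tested.

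Counts of members and of all genes called moved as follows. Without a filter 1 member rose with age in hyperoxia. With a filter of 7, 2472 genes fell at P29 and 2 members differed downwards between ages. After quantile normalization 1 member rose at P14 and 1 with age in hyperoxia, and at the 75th percentile 1 and 1, with 2 differing downwards between ages. The trend and robust fit gave 2 downward differences, array weights 1 rise at P14 and 1 with age in hyperoxia, and the fit of the compared groups alone 1 with age in hyperoxia. With the pan-endothelial mean subtracted, 4 members rose at P14 and 5 at P29, 3 differed upwards, 1741 genes fell at P14, 9473 rose and 800 fell at P29, 4448 and 738 differed up and down between ages, and 5773 rose and 702 fell with age in hyperoxia. With the actin term, 0 members rose and 0 fell at P14 (812 and 579 genes), 1 rose and 1 fell at P29 (1628 and 1277 genes), and 2 differed downwards. With P29 hyperoxia replicate 2 alone, 1 member rose at P29, 0 differed upwards and 1 rose with age in hyperoxia, while 1028 and 1059 genes differed and 1266 rose and 822 fell with age in hyperoxia; that lone array is assumed to vary like the other groups. With the replicate block 1 member rose at P14, without Pdgfb, and no other call on a member changed.

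Leaving out 1 array at a time gave 1 to 2 members higher and 2 lower at P14, 1 to 3 and 2 at P29, 0 to 2 and 1 to 2 for the difference, 1 to 2 and 2 for age in room air, and 1 to 2 and 3 for age in hyperoxia. Over all genes the ranges were 3556 to 4875 higher and 2355 to 3436 lower at P14, 4216 to 5221 and 2870 to 3906 at P29, 1099 to 1861 and 1338 to 1683 for the difference, 2664 to 3348 and 2116 to 2885 for age in room air, and 1704 to 2434 and 1320 to 1845 for age in hyperoxia. Of the 10 genes most like Esm1, 7 to 10 were named again without 1 array and 4 over group means, and of the 21 for the other members 7 to 15 and 2.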
